A study of Mus musculus with 15 samples.

Results

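Reelin signalling in the foetal mouse cortex was described through 10 genes, the ligand *Reln*, its receptors *Lrp8* and *Vldlr*, and the intracellular transducers *Dab1*, *Fyn*, *Crk*, *Crkl*, *Rapgef1*, *Rap1a* and *Pafah1b1*. The genes were chosen by their known place in the pathway, with earlier results of these data known. They make up 10 of the 23132 genes counted. All 10 passed the filter on low counts in every comparison.

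PHF6 is a chromatin-associated protein encoded on the X chromosome, and the study asked which genes change their RNA level in the developing cortex without it. RNA was sequenced from 15 foetuses on a C57BL/6 background, each giving 1 library. Whole E15.5 cortex came from 3 control foetuses (*Phf6* +/Y) and 5 foetuses with a germline deletion (*Phf6* -/Y) of litters 1 to 3. Cortical neurons dissociated at E16.5 and cultured for a day came from 3 control foetuses (*Phf6* +/Y;*Nes-cre* Tg/+) and 4 deleted foetuses (*Phf6* lox/Y;*Nes-cre* Tg/+) of litters 4 to 7. The controls of the neurons thus carried the *Nes-cre* transgene too, whereas the labels name it for no cortex. This transgene expresses Cre recombinase in precursors of the nervous system, so that cells of other origin in the cultures keep *Phf6*. Litter 7 gave a deleted culture and no control.

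Reelin is a large glycoprotein secreted into the marginal zone of the developing cortex, mainly by Cajal-Retzius cells, and later also by interneurons. It binds the lipoprotein receptors APOER2 (encoded by *Lrp8*) and VLDLR on migrating neurons, upon which the adaptor DAB1 is phosphorylated by Src family kinases such as FYN. Phosphorylated DAB1 recruits CRK and CRKL, which bring the exchange factor encoded by *Rapgef1* to the small GTPase RAP1, and the pathway acts together with LIS1 (encoded by *Pafah1b1*), a regulator of the dynein motor, in the inside-out layering of the cortex.

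*Reln* is on chromosome 5 (21884454 to 22344705 of GRCm38, minus strand), and *Dab1* on chromosome 4 (103619500 to 104744844). The 250 bases upstream of an annotated start of each are shown from RefSeq, 5′ to 3′ and with every CG dinucleotide in capitals, because *Reln* was the member that differed between genotypes and *Dab1* the member that rose most between cortex and neurons. The *Reln* window is chr5:22344706-22344955 (minus strand). The *Dab1* window is chr4:104367288-104367537 (plus strand), upstream of a start inside the gene. RefSeq windows were found for 9 of the 10 members.
Reln: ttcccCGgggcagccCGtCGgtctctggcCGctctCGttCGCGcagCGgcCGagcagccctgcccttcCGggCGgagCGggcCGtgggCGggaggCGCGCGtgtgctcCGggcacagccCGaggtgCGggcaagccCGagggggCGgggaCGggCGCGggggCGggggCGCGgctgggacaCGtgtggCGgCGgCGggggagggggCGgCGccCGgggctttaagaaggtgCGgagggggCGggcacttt
Dab1: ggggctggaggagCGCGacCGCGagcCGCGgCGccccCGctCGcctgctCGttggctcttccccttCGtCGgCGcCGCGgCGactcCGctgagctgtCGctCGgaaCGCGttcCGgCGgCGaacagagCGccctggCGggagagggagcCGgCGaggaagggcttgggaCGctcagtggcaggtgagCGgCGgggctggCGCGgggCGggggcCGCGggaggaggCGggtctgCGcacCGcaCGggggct
The *Reln* window held 37 CG dinucleotides and the *Dab1* window 40, against a median of 6 over all 32841 windows of this length. At least as many CG were present in 2.2% of all windows for *Reln* and in 1.31% for *Dab1*. The window before the outermost start of *Dab1* held 10, a number reached by 37.8% of all windows. The letters TATAAA, searched on both strands, were in none of the 13 windows of the members and in 12.4% of all windows. These counts describe the reference sequence only.

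The libraries held 16858007 to 31157700 counted reads. *Phf6*, the targeted gene, was at 149 to 191 CPM (counts per 1000000 counted reads, scaled by the trimmed mean of M values, TMM, over all 15 libraries) in control cortex and at 42.4 to 55.2 CPM in deleted cortex. In neurons it was at 228 to 259 CPM in controls and 59.9 to 85.8 CPM in deleted cultures, so that every library matched its label. The counts remaining come from the whole gene, of which only a part is deleted. Markers of neurons (5 genes) summed to 5027 to 5618 CPM in the cultures and 3211 to 3907 CPM in cortex. Markers of radial glia (8 genes) summed to 433 to 679 CPM and 1424 to 1709 CPM, and markers of endothelium (4 genes) to 3.34 to 6.43 CPM and 109 to 244 CPM. One cortex stood apart. In deleted replicate 1 of litter 3, markers of projection neurons (7 genes) summed to 1396 CPM, against 2325 to 2558 CPM in the other 7 cortices. Cortex results whose call or direction it changed are given with and without it.

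In cultured neurons, the RNA of the ligand was higher without *Phf6*, and none of the other 9 members passed the test. *Reln* was at 87.1, 81.9 and 129 CPM in the control neurons of litters 4, 5 and 6. It was at 163, 144 and 212 CPM in their deleted littermates and at 315 CPM in the deleted culture of litter 7. All 4 deleted cultures were above all 3 controls, which was so for 3.61% of all genes tested. No member had all deleted cultures below all controls, as 3.62% of all genes had. The means were 208 ± 76.6 CPM (SD, n = 4) and 99.4 ± 26 CPM (SD, n = 3). Between littermates the deleted culture held 1.87 times the control level in litter 4, 1.75 times in litter 5 and 1.64 times in litter 6.

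With litter as a term, *Reln* rose by 0.81 on the log2 scale (SE 0.06, 95% interval 0.68 to 0.94). The false discovery rate (FDR, Benjamini-Hochberg over 13909 genes) was 1.4e-05 in edgeR's quasi-likelihood test. By p-value *Reln* was second of all genes, after *Phf6*. The 1 member called at an FDR under 0.05 stands beside 0.273% of all genes called in neurons, 0.194% higher and 0.0791% lower. The study had already reported *Reln* as the top differentially expressed gene in these neurons, so its call here is not an independent result. *Reln* was also the 1 member with an unadjusted p under 0.05, as were 10.3% of all genes. The litters differed in the level of *Reln*, and the call rests on comparing littermates. Without the litter term the difference was 1.07 (SE 0.33) with an FDR of 0.739.

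In E15.5 cortex the control levels of *Reln* were higher than those of control neurons, and the genotype difference was not resolved. *Reln* was at 258 CPM in the control of litter 1 and at 338 and 355 CPM in its deleted littermates. In litter 2 the control was at 228 CPM and the deleted cortices at 302 and 309 CPM. In litter 3 the order was turned, with 231 CPM in the control and 185 CPM in the deleted cortex. The deleted cortices of litters 1 and 2 were thus above every control, and that of litter 3 was below every control.

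The log2 difference was 0.22 (SE 0.12, 95% interval -0.07 to 0.50, FDR 0.603). Within litters it ranged from 0.392 to 0.462 for the 4 deleted cortices of litters 1 and 2 and was -0.317 in litter 3. The deleted cortex of litter 3 is the one with low projection neuron markers, and its part in the result was not tested. Leaving it out gave 0.42 (SE 0.08, FDR 0.0398). Leaving out its control instead gave 0.42 (SE 0.07, FDR 0.0553), and leaving out both gave 0.42 (SE 0.07, FDR 0.0623), an alternative chosen after seeing the data.

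**Figure D1:**
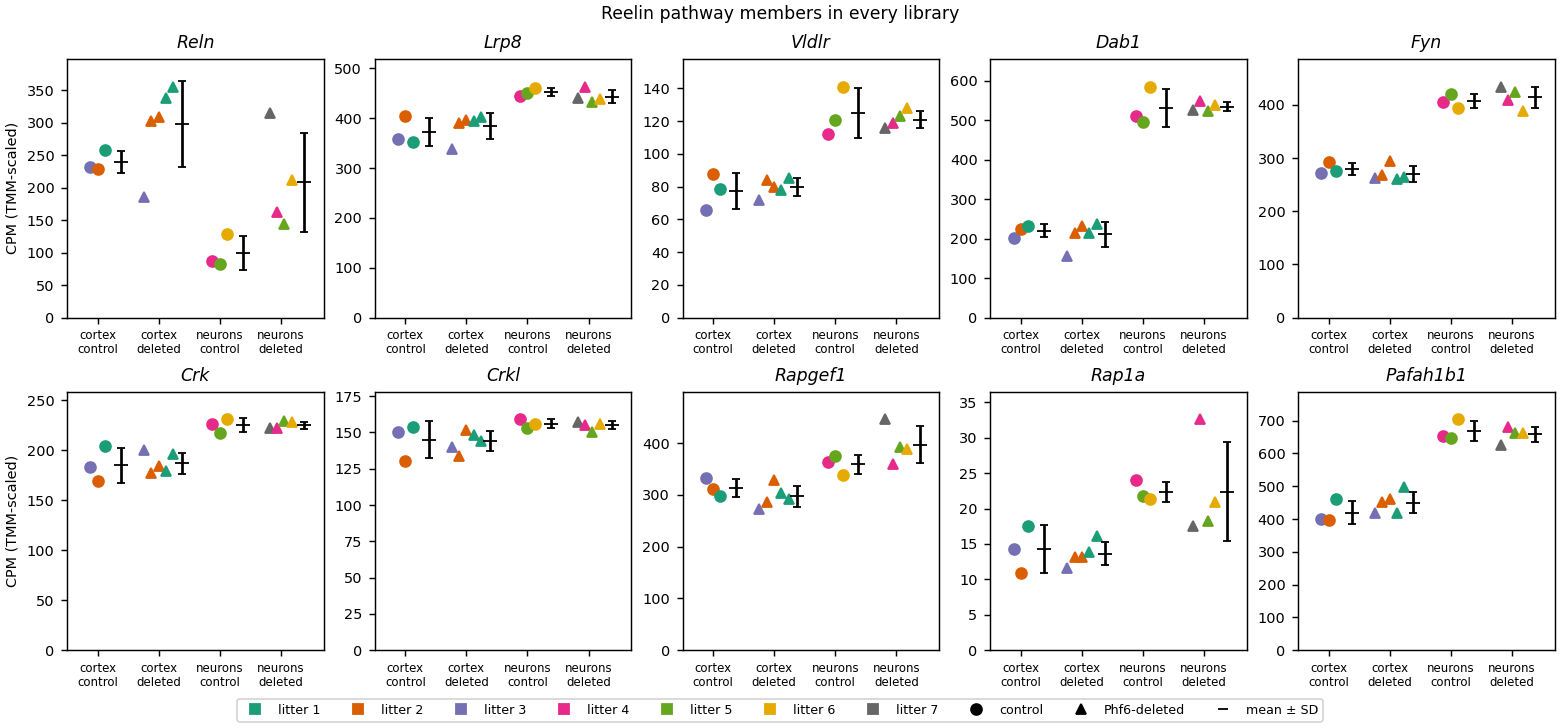
Level of each of the 10 members in every library, as TMM-scaled CPM on axes that start at 0. Circles are controls, triangles are Phf6-deleted libraries, colours mark litters and bars show the mean ± SD of a group (n = 3, 5, 3 and 4). *Reln* separates by genotype in neurons, with controls at 81.9 to 129 CPM and deleted cultures at 144 to 315 CPM.

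No member was called in cortex by edgeR, and none had an unadjusted p under 0.05. DESeq2 and limma-trend called none either. Of all genes tested in cortex, 0.386% were called (0.319% higher and 0.0678% lower) and 10.4% had an unadjusted p under 0.05. The genotypes overlapped for each member, whereas the deleted cortices were all above the controls for 2.47% and all below them for 2.55% of all genes.

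The receptors were close between genotypes. *Lrp8*, encoding APOER2, was at 353 to 404 CPM in control cortex and 339 to 402 CPM in deleted cortex. The lowest value was that of the deleted cortex of litter 3, and the other 4 deleted cortices were at 390 to 402 CPM. In neurons *Lrp8* was at 445 to 460 CPM in controls and 432 to 463 CPM in deleted cultures. Its log2 difference was 0.02 (95% interval -0.12 to 0.16) in cortex and -0.03 (-0.14 to 0.09) in neurons. *Lrp8os2*, another counted gene, overlaps *Lrp8*, and the strand setting of the counting is not given in the sources used here.

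*Vldlr*, the second receptor, was at 65.8 to 87.5 CPM in control cortex and 72 to 85 CPM in deleted cortex. It was at 112 to 141 CPM in control neurons and 116 to 128 CPM in deleted neurons. The log2 difference was 0.01 (95% interval -0.14 to 0.17) in cortex and -0.01 (-0.15 to 0.13) in neurons. The groups overlapped in both.

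*Dab1*, the adaptor that carries the signal into the cell, was at 201, 225 and 233 CPM in the control cortices of litters 3, 2 and 1. The deleted cortex of litter 3 was at 157 CPM, and those of litters 1 and 2 were at 214 to 238 CPM, within the range of the controls or just above it. In neurons it was at 495 to 585 CPM in controls and 523 to 549 CPM in deleted cultures. The log2 difference was -0.12 (95% interval -0.28 to 0.04, FDR 0.616) in cortex and 0.02 (-0.10 to 0.14) in neurons. Without both libraries of litter 3 the cortex value was -0.03.

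*Fyn*, the kinase, was at 272 to 293 CPM in control cortex and 261 to 295 CPM in deleted cortex, and at 394 to 420 CPM and 388 to 434 CPM in neurons. *Crk* was at 169 to 204 CPM in control cortex and 177 to 200 CPM in deleted cortex, and at 217 to 231 CPM and 222 to 229 CPM in neurons. *Crkl* was at 130 to 154 CPM and 134 to 152 CPM in cortex, and at 153 to 159 CPM and 150 to 157 CPM in neurons. All 3 overlapped between genotypes in both tissues. *Crk* and *Crkl* encode related adaptors, as *Rap1a* and *Rap1b* encode related GTPases, and how reads matching both copies were counted is not given in the sources used here.

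*Rapgef1*, the exchange factor, was at 298 to 332 CPM in control cortex and 272 to 328 CPM in deleted cortex. In neurons the controls were at 338 to 375 CPM and the deleted cultures at 360 to 446 CPM, with the highest value in litter 7, the litter with no control. *Rap1a*, the GTPase, had the lowest counts of the members, 275 to 886 reads per library. It was at 10.9 to 17.6 CPM and 11.6 to 16.1 CPM in cortex, and at 21.4 to 24 CPM and 17.5 to 32.6 CPM in neurons. *Pafah1b1*, encoding LIS1, was at 398 to 462 CPM and 420 to 497 CPM in cortex, and at 648 to 704 CPM and 626 to 680 CPM in neurons.

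The intervals show what size of change these libraries leave possible. Over the 9 members other than *Reln*, the log2 differences in cortex lay between -0.12 and 0.08 with a lowest FDR of 0.616. Without the deleted cortex of litter 3 they lay between -0.06 and 0.09 with a lowest FDR of 0.84. *Vldlr* (-0.02), *Crk* (-0.01), *Crkl* (0.03) and *Rap1a* (0.01) then changed sign, and *Rapgef1* went from -0.09 to -0.01. In neurons they lay between -0.03 and 0.08 with a lowest FDR of 0.681. The 95% interval was widest for *Rap1a*, -0.36 to 0.20 in cortex and -0.20 to 0.34 in neurons. In neurons the interval of each of the other 8 ended between -0.15 and 0.20. The median over the 9 was -0.0127 in cortex and 0.00237 in neurons, beside -0.00212 and 0.000974 over all genes tested.

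**Figure D2:**
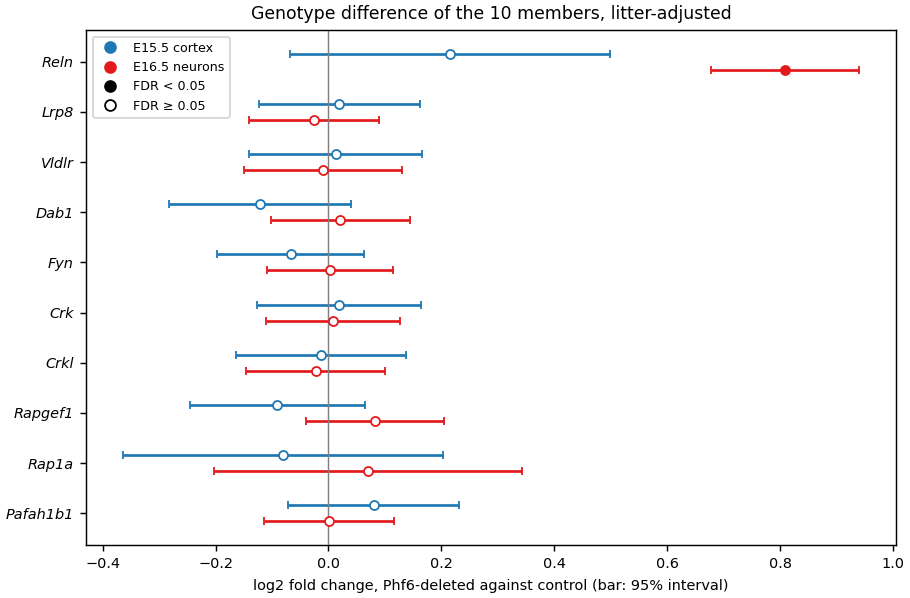
Log2 fold change of each member, Phf6-deleted against control, with litter as a term, in E15.5 cortex (blue) and E16.5 neurons (red), with 95% intervals as bars. Filled points have an FDR under 0.05 in edgeR's quasi-likelihood test. The point of *Reln* in neurons, at 0.81, is the filled one, and the other members lie between -0.12 and 0.08.

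The difference between both genotype effects was tested as an interaction. For *Reln* it was 0.59 on the log2 scale, higher in neurons (SE 0.16, 95% interval 0.24 to 0.94). The unadjusted p was 0.00312 in edgeR's quasi-likelihood test and the FDR 0.657, so that *Reln* was not shown to differ between the tissues after adjustment. DESeq2 gave an FDR of 0.0645. Of all genes tested, 0.0133% were called (0.00667% in each direction) and 5.19% had an unadjusted p under 0.05. Among the members *Reln* was the 1 gene with such a p, none was called by edgeR, DESeq2 or limma-trend, and the FDR of the other 9 was at least 0.954. Without the deleted cortex of litter 3 the interaction of *Reln* was 0.38 (SE 0.09), and without its control also 0.38 (SE 0.09). Cortex and neurons also differ in stage, transgene and kind of deletion, which cannot be told apart from the tissue here.

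Control neurons and control cortex differed in most members, as did 51.1% of all genes (24.7% higher and 26.4% lower in neurons). Of the 10 members, 7 were higher in neurons, 1 was lower and 2 were not called, and 9 had an unadjusted p under 0.05, as had 56.7% of all genes. *Dab1* rose most. Its control neurons were at 495, 512 and 585 CPM and its control cortices at 201, 225 and 233 CPM, a log2 difference of 1.27 (SE 0.09, FDR 2.11e-07). *Reln* moved the other way, from 228 to 258 CPM in control cortex to 81.9 to 129 CPM in control neurons, and fell by 1.27 on the log2 scale (SE 0.16, FDR 0.00018).

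Both receptors rose, *Vldlr* by 0.69 (SE 0.12, FDR 0.000375) and *Lrp8* by 0.28 (SE 0.08, FDR 0.00915). *Pafah1b1* rose by 0.67 (SE 0.08, FDR 2.21e-05), *Rap1a* by 0.65 (SE 0.17, FDR 0.00505), *Fyn* by 0.53 (SE 0.07, FDR 5.73e-05) and *Crk* by 0.27 (SE 0.08, FDR 0.0148). *Rapgef1* differed by 0.19 (95% interval 0.02 to 0.36, FDR 0.0557) and *Crkl* by 0.11 (-0.08 to 0.29, FDR 0.319), and neither passed the test. Every control culture was above every control cortex for 8 members, as was so for 28.9% of all genes, *Crkl* overlapped, and for *Reln* every culture was below, as was so for 31.6% of all genes.

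The scale matters for the smaller of these values. Scaling to library totals instead moved the median of all genes from -0.03 to -0.17, and the share of higher genes among those called from 48.4% to 33%. *Lrp8* and *Crk* were then no longer called (FDR 0.167 and 0.186) and *Crkl* changed sign. *Dab1*, *Vldlr*, *Pafah1b1*, *Rap1a* and *Fyn* stayed higher and *Reln* lower. Dissociation, a day in culture, stage and the transgene separate these groups together and cannot be told apart. In RNA from bulk samples, fewer cells of a type and less RNA per cell cannot be told apart either.

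Compared per length, as RPKM (CPM divided by the length of the gene model in kilobases), all transducers but *Rap1a* were above the ligand in control cortex, and the receptors differed from each other. In control cortex the order was *Fyn* at 75.9, *Pafah1b1* at 68, *Crk* at 51.2, *Rapgef1* at 49.4, *Lrp8* at 48.4, *Dab1* at 39.4, *Crkl* at 37.4, *Reln* at 20.4, *Rap1a* at 11 and *Vldlr* at 9.31 RPKM. The libraries of *Fyn* and *Pafah1b1* overlapped, as did those of *Crk*, *Rapgef1* and *Lrp8* in turn, of *Dab1* and *Crkl*, and of *Rap1a* and *Vldlr*. *Lrp8* was thus the more abundant receptor, at 45.9 to 52.7 RPKM against 7.92 to 10.5 RPKM.

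In control neurons *Dab1* was at 95.1 RPKM, behind *Fyn* at 110 and *Pafah1b1* at 108 RPKM. *Reln* was last at 8.49 RPKM (7 to 11 over the 3 libraries), below *Vldlr* at 15 RPKM with no overlap. In deleted neurons *Reln* was at 17.8 RPKM (12.3 to 26.9 over 4 libraries) and its libraries overlapped those of *Rap1a* at 17.3 RPKM.

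**Figure D3:**
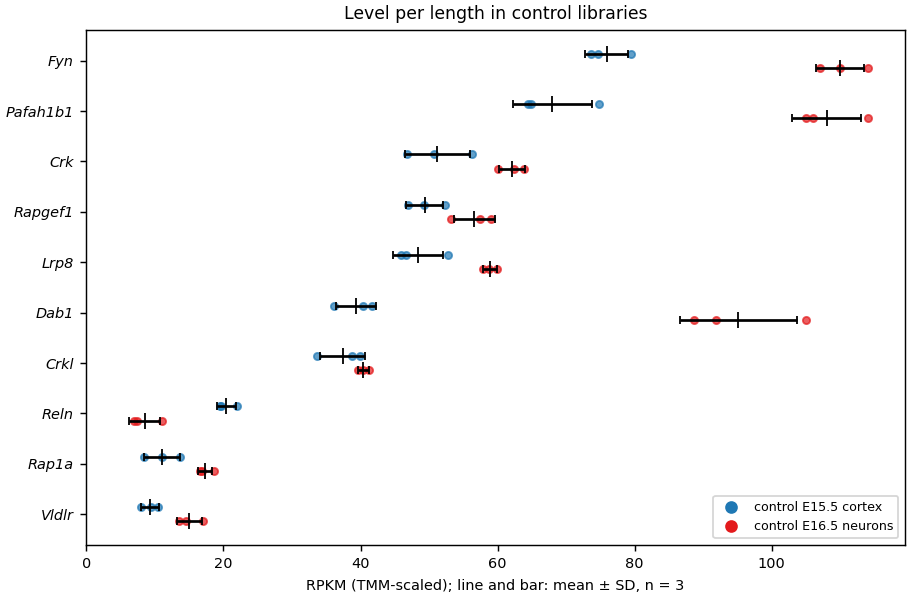
Level per length of each member in control E15.5 cortex (blue) and control E16.5 neurons (red), as TMM-scaled RPKM, ordered by the level in cortex. Points are libraries and black bars the mean ± SD of 3 libraries. *Dab1* goes from 39.4 to 95.1 RPKM and *Reln* from 20.4 to 8.49 RPKM.

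A list of 47 further genes of the pathway held no gene called between genotypes in either tissue by edgeR, and all 47 were tested. In cortex 2 had an unadjusted p under 0.05 in the higher and 6 in the lower direction, and in neurons 5 and 4, beside 10.4% and 10.3% of all genes with such a p in either direction. The median log2 difference was -0.0324 in cortex and 0.0193 in neurons, beside -0.00212 and 0.000974 over all genes tested. Without the deleted cortex of litter 3 none of the 47 was called in cortex either. DESeq2 called 1 of the 47 in cortex, *Lrpap1*, and none in neurons, and limma-trend called none. In the interaction edgeR, DESeq2 and limma-trend called none, and 2 had an unadjusted p under 0.05, beside 5.19% of all genes. From each group of the list, the gene with the smallest p in each tissue is named here.

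Among the proteases that cleave reelin, *Adamts4* differed by 0.30 in cortex (FDR 0.433) and *Adamts3* by 0.21 in neurons (FDR 0.238). The third, *Adamts2*, named for completeness after its values were seen, differed by -0.35 in cortex (FDR 0.706) and by -0.72 in neurons (SE 0.28, FDR 0.369). Among other ligands of the receptors, *Clu*, encoding clusterin, differed by -0.20 in cortex (FDR 0.553) and *Thbs1*, encoding thrombospondin, by 0.20 in neurons (FDR 0.485). Among genes for the handling of the receptors, *Lrpap1*, encoding the receptor-associated protein that chaperones lipoprotein receptors, differed by -0.31 in cortex (SE 0.07, FDR 0.0795). DESeq2 gave it an FDR of 0.0102. In neurons it was *Mylip*, encoding the ubiquitin ligase that degrades these receptors, at 0.53 (SE 0.20, FDR 0.36).

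*Src*, another kinase of the family of *Fyn*, differed by -0.03 in cortex (0.06 without the deleted cortex of litter 3) and 0.07 in neurons. *Socs7*, whose product takes part in the turnover of DAB1, differed by -0.05 and 0.09. Of the other adaptors, *Nck2* differed by -0.20 in cortex (FDR 0.359) and *Dab2ip* by -0.05 in neurons (FDR 0.839). In the PI3K branch *Akt2* differed by -0.20 in cortex (FDR 0.352, and -0.10 without the deleted cortex of litter 3) and *Pik3cb* by -0.25 in neurons (FDR 0.382). In the RAP1 branch *Itga3*, an integrin subunit, differed by 0.20 in cortex (FDR 0.627) and *Rap1b* by -0.25 in neurons (FDR 0.383).

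Among partners of LIS1 the gene was *Dync1h1*, encoding the heavy chain of cytoplasmic dynein, in both tissues. It differed by 0.19 in cortex (SE 0.06, FDR 0.302) and by 0.18 in neurons (SE 0.05, FDR 0.209). In the CDK5 branch *Cdk5r2*, an activator of the kinase, differed by 0.16 in cortex (FDR 0.626) and *Mapt*, encoding tau, by 0.14 in neurons (FDR 0.325). Between control neurons and control cortex 18 of the 47 rose and 9 fell, beside 24.7% of all genes higher and 26.4% lower.

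**Figure D4:**
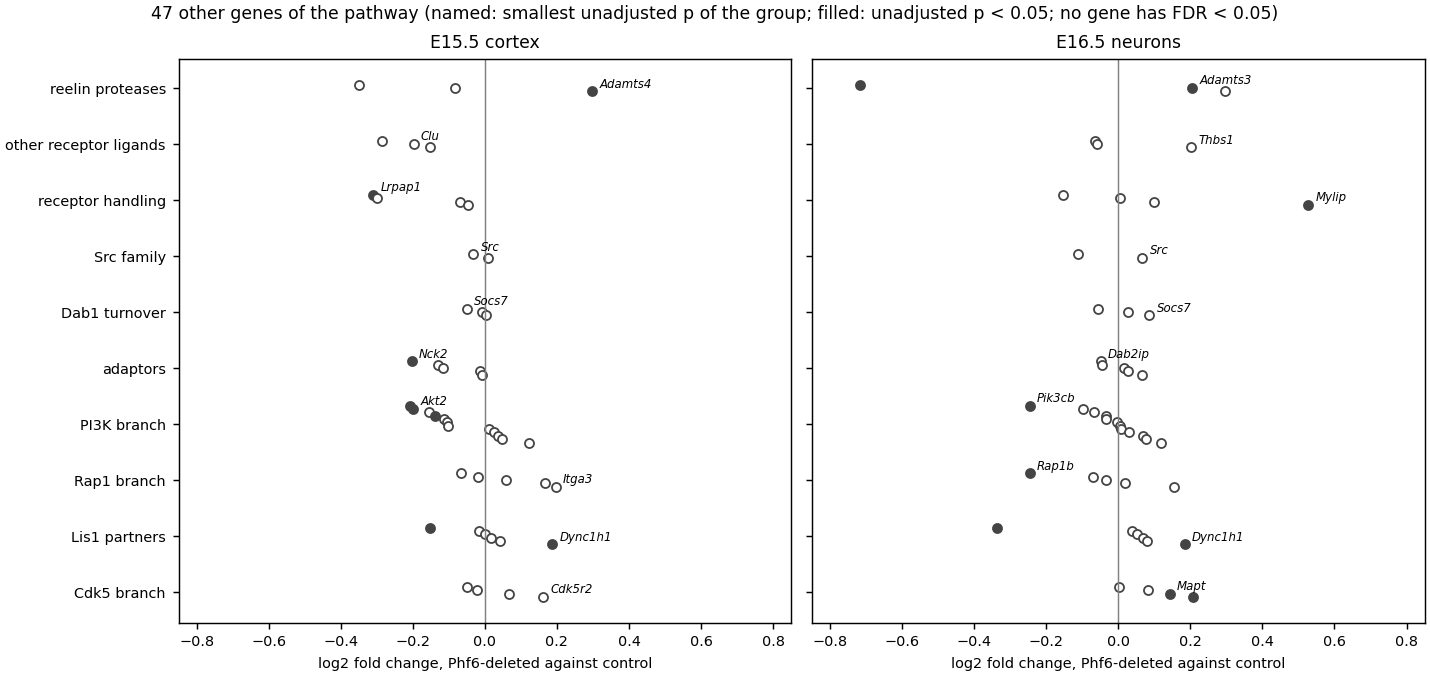
Log2 fold change of the 47 further genes of the pathway, Phf6-deleted against control, in rows by role, in E15.5 cortex (left) and E16.5 neurons (right). Filled points have an unadjusted p under 0.05, and the named gene is the one with the smallest p of its row. In cortex 2 filled points lie to the right and 6 to the left of 0, in neurons 5 and 4.

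Markers of Cajal-Retzius cells, the main source of reelin at this stage, were examined beside *Reln*. The list held 9 genes (*Trp73*, *Lhx1*, *Lhx5*, *Calb2*, *Ebf2*, *Ebf3*, *Nhlh2*, *Cacna2d2* and *Ndnf*). Their summed level was 72.4 to 82.2 CPM in control neurons and 97.4 to 125 CPM in deleted neurons, and 160 to 206 CPM in control cortex and 203 to 327 CPM in deleted cortex. No marker was at 0 in every library of a group, but *Ebf2* was at 0 to 0.219 CPM in control neurons and 0 to 0.331 CPM in deleted neurons. The part of these markers in the result for *Reln* was not tested.

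In neurons 8 of the 9 were tested (not *Ebf2*), and the fitted difference of each was above 0. Without control replicate 1 or 3, or without deleted replicate 2 or 4, 7 of the 8 were above 0. Reads were few for *Lhx1* (20 to 45 per neuron library) and *Lhx5* (35 to 69). *Ndnf*, which encodes a secreted factor, was at 3.56, 8.58 and 9.17 CPM in the controls of litters 4, 5 and 6. It was at 11.7, 17.4 and 18.9 CPM in their deleted littermates and at 14.8 CPM in litter 7. It rose by 1.24 (SE 0.16, FDR 0.00386) and was the 1 marker called, beside 0.273% of all genes. *Trp73*, encoding p73, differed by 0.83 (SE 0.19, FDR 0.105), *Lhx1* by 0.92 (SE 0.37, FDR 0.392), *Lhx5* by 0.47, *Calb2* and *Nhlh2* each by 0.39, *Cacna2d2* by 0.05 and *Ebf3* by 0.02. The median over the 8 was 0.432.

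In cortex all 9 were tested, again with fitted differences above 0, and 2 were called, beside 0.386% of all genes. *Lhx5*, a LIM homeobox factor, rose by 0.77 (SE 0.14, FDR 0.0368) and *Calb2*, encoding calretinin, by 0.56 (SE 0.11, FDR 0.0393). Both calls depended on single libraries and on the litter term. *Lhx5* was called in 1 and *Calb2* in 2 of the 8 fits that leave out 1 library each, and without the litter term their FDR was 0.82 and 0.528. *Cacna2d2* differed by 0.45 (FDR 0.0505), *Ebf3* by 0.66, *Ebf2* by 0.58, *Ndnf* by 0.30, *Lhx1* and *Nhlh2* each by 0.29 and *Trp73* by 0.04. The median was 0.449. The deleted cortex of litter 3, lowest in *Reln*, had the highest marker sum, 327 CPM. It was also the highest in *Lhx5* (27.2 CPM), *Ebf3*, *Ebf2*, *Lhx1* and *Nhlh2*, but the lowest of the deleted cortices in *Trp73* (17.3 CPM). Without it *Ebf3* differed by 0.28, *Ebf2* by 0.22, *Nhlh2* by 0.03, *Ndnf* by 0.16 and *Trp73* by 0.32, and *Lhx1* turned to -0.27, so that 8 of the 9 were above 0, with a median of 0.277. *Cacna2d2* was then called at 0.59 (SE 0.09, FDR 0.00718), and *Lhx5* (0.69, FDR 0.209) and *Calb2* (0.52, FDR 0.191) were not.

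Among 9 markers of interneurons, which also make reelin, 1 was called in neurons, beside 0.273% of all genes. *Sst*, encoding somatostatin, was at 12.9, 34.8 and 25.1 CPM in the controls of litters 4, 5 and 6. It was at 24.5, 74.5 and 41.1 CPM in their deleted littermates and at 44.3 CPM in litter 7. *Sst* rose by 0.92 (SE 0.10, FDR 0.000552) in neurons and differed by -0.26 (FDR 0.422) in cortex, and its interaction was 1.17 (SE 0.16, FDR 0.0236). Without the litter term the FDR was 0.81 in neurons and 0.983 in the interaction. The interaction also lost its call in 8 of the 15 fits that leave out 1 library each, among them the fit without the deleted cortex of litter 3 (1.10, FDR 0.0673), and was highest in FDR without neuron control 2 (0.352). The other 8 (*Gad1*, *Gad2*, *Dlx1*, *Dlx2*, *Dlx5*, *Lhx6*, *Sp8* and *Npy*) lay between -0.37 for *Sp8* and 0.17 for *Gad1* in neurons. In cortex they lay between -0.08 for *Dlx2* and 0.22 for *Gad1*, and without the deleted cortex of litter 3 between 0.03 for *Dlx2* and 0.40 for *Dlx5*. None of the 9 was called in cortex by edgeR, DESeq2 or limma-trend. At an unadjusted p under 0.05, 2 were higher and 1 lower, beside 10.4% of all genes in either direction. The list summed to 187 to 280 CPM in control neurons and 237 to 309 CPM in deleted neurons, and its part in the result was not tested.

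**Figure D5:**
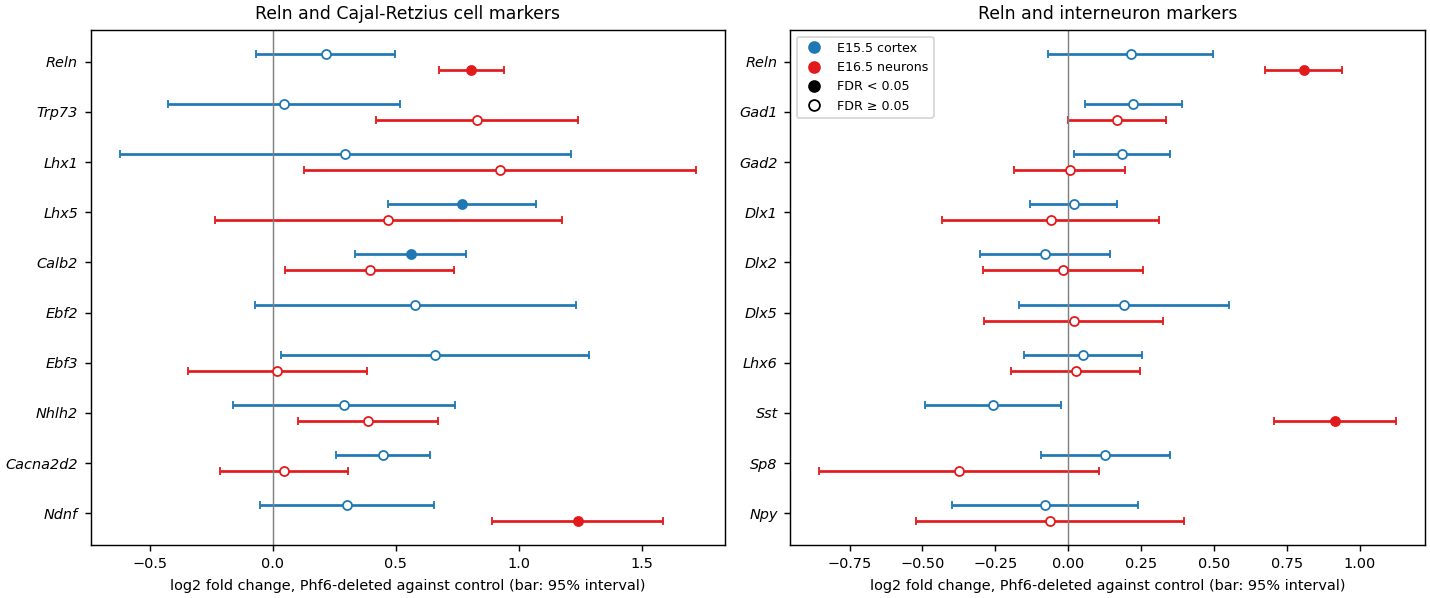
Log2 fold change of *Reln* beside 9 markers of Cajal-Retzius cells (left) and 9 markers of interneurons (right), Phf6-deleted against control, with 95% intervals, in E15.5 cortex (blue) and E16.5 neurons (red). Filled points have an FDR under 0.05. In neurons *Reln* (0.81), *Ndnf* (1.24) and *Sst* (0.92) are filled, in cortex *Lhx5* (0.77) and *Calb2* (0.56).

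Markers of tissues that adjoin the cortex were low in the cultures. Those of choroid plexus (3 genes) summed to 0.77 to 3.09 CPM in control neurons and 2.65 to 23 CPM in deleted neurons. One of them, *Ttr*, encoding transthyretin, was called at a log2 difference of 2.84 (FDR 0.000188), beside 0.273% of all genes. The others, *Folr1* and *Clic6*, did not pass the low-count filter in neurons and were not tested there. In the culture with the highest sum, 23 CPM, *Ttr* alone was at 22.3 CPM. Markers of meninges (4 genes) summed to 1.98 to 5.04 CPM and 4.6 to 6.39 CPM. The part of either in the result for *Reln* was not tested. Both were variable in cortex, at 1.53 to 462 CPM for choroid plexus and 7.16 to 273 CPM for meninges.

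The genes whose levels followed *Reln* most closely over the 15 libraries were taken from log2 CPM centred on the mean of each tissue. Of 13733 genes tested in both tissues these were *Ncoa2* (Pearson r 0.899), *Ankrd44* (0.898), *Sdk1* (0.875), *Ncoa1* (0.875), *Hectd4* (0.867), *Ank3* (0.865), *Tenm2* (0.864), *Soga3* (0.862), *Bsn* (0.86) and *Dync1h1* (0.856). These coefficients are a description, as the libraries share litters and genotypes. Their FDR between genotypes was at least 0.141 in neurons and at least 0.198 in cortex. Their gene models had a median length of 9125.5 bases, against 2965 bases over the 13733 genes, and that of *Reln* is 11702 bases.

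Long genes differed slightly from all genes between genotypes. The 285 genes tested in neurons with models of 10000 bases or more had a median log2 difference of 0.09, and the 295 such genes in cortex one of 0.12, against medians of all genes within 0.01 of 0. Its part in the result for *Reln* was not tested. The difference of *Reln* in neurons was 0.81. Among the 8 Cajal-Retzius markers tested in both tissues, r over the 15 libraries ran from -0.105 for *Lhx1* to 0.687 for *Ndnf* and 0.839 for *Trp73*. In the 7 neuron libraries alone it was above 0 for all 8, from 0.389 for *Calb2* to 0.894 for *Trp73*. In the 8 cortices it was below 0 for *Lhx1* (-0.864), *Ebf3* (-0.619), *Nhlh2* (-0.604) and *Lhx5* (-0.463). Among the interneuron markers r over the 15 libraries ran from -0.581 for *Gad2* to 0.621 for *Lhx6*. Their r ran from -0.458 for *Dlx2* to 0.768 for *Npy* in the 8 cortices. In the 7 neuron libraries it ran from -0.685 for *Gad2* to 0.586 for *Lhx6*. The members also differed by tissue. Over the 15 libraries r was 0.51 for *Rapgef1*, 0.417 for *Dab1* and at most 0.218 for the others. In cortex it was 0.731 for *Dab1*, 0.718 for *Lrp8*, 0.639 for *Pafah1b1* and 0.163 for *Rapgef1*, and in neurons 0.34, -0.307, -0.25 and 0.674. The deleted cortex of litter 3, lowest in *Reln*, is among the 8 cortices, and its part in these values was not tested. Among the 7 neuron libraries is the deleted culture of litter 7, the highest of them in *Reln* (315 CPM), whose part was not tested either.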

How the data were processed

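Poly(A) RNA libraries were made with a stranded kit from 8 cortices and 7 neuron cultures. The deposited values are raw counts per Entrez gene, which the authors obtained by aligning reads to mm10 with Rsubread and counting them with featureCounts. The strand setting is not given in the sources used here. The deposited gene model length was used for RPKM. Of 27179 rows, those without an identifier (0.462% of the counts), unmatched to RefSeq (0.759%), pseudogenes (0.791%), ribosomal RNAs and predicted names were left out, and 23132 genes remained.

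The members and gene lists were chosen with earlier results of these data known. Per tissue, edgeR 4.0.16 (R 4.3.3) fitted counts with filterByExpr, TMM factors, litter and genotype, a robust quasi-likelihood F test and Benjamini-Hochberg adjustment over 14750 genes in cortex, 13909 in neurons, 15001 in the interaction and 14320 between control tissues. A call is an FDR under 0.05. Intervals are 95% intervals from the degrees of freedom and a standard error derived for each gene from its log2 difference and F statistic. Levels are CPM or RPKM on 1 TMM scale over 15 libraries. The common biological coefficient of variation was 0.131 in cortex and 0.0824 in neurons.

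Litters come from the labels, and the replicate numbers do not follow them. Over genes, deviations from the group mean correlated at -0.164 to 0.432 in the 5 littermate pairs of cortex and at 0.0712 to 0.271 in the 3 of neurons, ranges that overlap those of pairs from different litters (-0.421 to 0.167 over 10 pairs and -0.275 to 0.236 over 9). The culture of litter 7 has no littermate and so carries no weight in the genotype term. Each library is a separate foetus. Alternatives were DESeq2 1.42.0, limma-trend 3.58.1, other scalings, no low-count filter, no litter term, all libraries in 1 fit and each library left out. The main edgeR fits were tested on simulated data, and the alternatives were not. For the comparison of control tissues the simulated data held no differences between litters, unlike the real libraries.

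All members were named, with each pathway gene that was called or had the smallest p of its group in a tissue, each tested Cajal-Retzius and interneuron marker, and the 10 genes most like *Reln* (log2 of CPM plus 0.01). *Phf6*, *Ttr*, *Adamts2*, *Lrp8os2* and the genes of the other marker lists were named outside this rule where a result turned on them. 1 further interneuron marker is not reported here, and that list is counted over the other 9.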

Additional observations from a re-analysis of the deposited data

Results flagged for a closer look

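Over 20 sets of libraries examined, each 1 member in the deleted cortices or deleted neurons, 2 held a library far from the others by Dixon's test at the 95% level. Chance does so in about 1 of 20 sets. *Lrp8* was at 339 CPM in deleted cortex replicate 1 (litter 3), against 390 to 402 CPM in the other 4 deleted cortices. The gap to the nearest library was 0.809 of the range of the group, over a critical value of 0.71. This library was also the lowest of the 8 cortices in *Reln* (185 CPM) and *Dab1* (157 CPM). *Fyn* was at 295 CPM in deleted cortex replicate 3 (litter 2), against 261 to 268 CPM in the other 4, a gap of 0.784 of the range.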

How the results depend on the processing

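The rise of *Reln* in neurons was called in all 7 fits that leave out 1 library each (0.76 to 0.86) and in all other alternatives but 1. Without the litter term (no replicate block) it was 1.07 with an FDR of 0.739, and the number of members called was 0 in place of 1. The litter term changed no other call of a member, but without it 1 gene in all was called in cortex in place of 57, 1 in place of 38 in neurons and 0 in place of 2 in the interaction. *Lhx5*, *Calb2*, *Ndnf*, *Sst* and *Ttr* also lost their calls without it. Leaving out 1 library called 0 to 1 members in cortex (1 without deleted replicate 1) and 1 to 1 in neurons.

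Signs turned only for differences that were not called. In neurons, library totals gave -0.011 for *Fyn*, -0.012 for *Pafah1b1* and -0.0052 for *Crk*, no low-count filter gave -0.0025 for *Fyn* and -0.0039 for *Pafah1b1*, and no litter term gave -0.022 for *Pafah1b1*. Library totals gave -0.033 for *Crkl* between control tissues. Without both libraries of litter 3, cortex values were -0.030 for *Vldlr*, -0.022 for *Crk*, 0.020 for *Crkl*, 0.00094 for *Rap1a* and 0.054 for *Src*. Over fits leaving out 1 library, cortex values spanned -0.070 to 0.068 for *Lrp8*, -0.025 to 0.087 for *Vldlr*, -0.017 to 0.096 for *Crk*, -0.083 to 0.028 for *Crkl*, -0.26 to 0.013 for *Rap1a* and -0.10 to 0.061 for *Src*. Neuron values spanned -0.062 to 0.061 for *Vldlr*, -0.016 to 0.090 for *Dab1*, -0.0080 to 0.015 for *Fyn*, -0.027 to 0.028 for *Crk*, -0.13 to 0.21 for *Rap1a* and -0.027 to 0.046 for *Pafah1b1*. Interactions spanned -0.092 to 0.034 for *Lrp8*, -0.093 to 0.041 for *Vldlr*, -0.098 to 0.023 for *Crk*, -0.056 to 0.065 for *Crkl* and -0.062 to 0.33 for *Rap1a*.

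Calls were gained by *Lrpap1* in cortex with DESeq2, with no low-count filter (FDR 0.0459) and without deleted replicate 4 (0.0419). *Dync1h1* in neurons was called with no low-count filter (0.0321) and without control replicate 3 (0.00882) or deleted replicate 4 (0.0278). *Cacna2d2* in cortex was called with DESeq2, limma-trend, library totals and no low-count filter. It was also called without both litter 3 libraries and without control replicate 1 or deleted replicate 1 or 5. In neurons *Trp73* was called with no low-count filter and without control replicate 2 or 3 or deleted replicate 3. *Calb2* was called there without control replicate 1 or deleted replicate 2, and *Sp8* was called lower without control replicate 3. Between control tissues, *Crk* lost its call without cortex control 2 (0.07), and *Rapgef1* was called with DESeq2 (0.0312), size factors of DESeq2 (0.0401) and without cortex control 1 (0.0407) or neuron control 3 (0.0343). *Lhx5* kept its call in cortex in 1 and *Calb2* in 2 of 8 fits leaving out 1 library, and the interaction of *Sst* in 7 of 15. *Calb2* and *Ttr* also lost theirs with all libraries in 1 fit (FDR 0.0752 and 0.926). Beside the fits without the litter term, counts over all genes moved by over 1.5 times with DESeq2 (199 in cortex, 62 in neurons, 12 in the interaction in place of 2), with no low-count filter (114, 297 and 5), with library totals in neurons (73), without both libraries of litter 3 (10 in cortex) and with 1 library left out (7 to 81 in cortex, 16 to 494 in neurons, 0 to 4 in the interaction). The causes were not tested. Of 990 values of single genes under alternatives, 892 kept direction and side of the threshold. With 3 controls a tissue, the fitted intervals set what could be seen, and *Rap1a*, the member with fewest reads, had the widest between genotypes. In cortex that of *Reln* (-0.07 to 0.50), with many more reads, was about as wide as that of *Rap1a* (-0.36 to 0.20).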
